A study of Mus musculus with 4 samples.

Results

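Genes that lie on the same strand and share exon bases were examined in C2C12 cells, a mouse myoblast line of dividing muscle precursors. The members were all protein-coding genes of the GENCODE M21 annotation that share at least 1 exon base with another protein-coding gene on the same strand, grouped into clusters by that sharing. Of 21951 protein-coding genes, 1120 in 422 clusters shared bases in this way. Clusters with a summed count of at least 100 in each library were kept, which dropped 112 clusters, and the clusters holding Ube2v1 or Scamp4 were left out by name. This gave 308 clusters with 847 genes, spread over 21 chromosomes. The summed counts of these libraries thus chose the clusters, while the shares described here did not.

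In growth medium, the cells received vehicle or recombinant GDF10, a secreted signalling protein that belongs to the TGF-beta superfamily, for 6 h. Each group held 2 libraries of total RNA, called biological replicates in the labels, so p-values here reflect how these 4 libraries differ. The dose was not found in the sources used here. All samples come from 1 cell line with no genetic change named. The line is labelled as muscle stem cells, but the extraction protocol names longissimus dorsi, a back muscle. Total counts ranged from 29641165 to 35597310 per library over 51826 listed genes. All 8 myoblast markers examined, among them Myod1 and Myf5, had counts, with a sum of 2263 to 2326 CPM, the count scaled to a common library total, per library. The 8 mature muscle genes summed to 74.0 to 85.4 CPM and the 7 fibroblast genes to 7128 to 7904 CPM. Blood and immune, endothelial, adipocyte and epithelial genes each summed to 2.16 to 19.2 CPM, with Adgre1, Hbb-bs, Hbb-bt, Emcn, Adipoq, Lep and Epcam at 0.

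Exon sharing on one strand arises in several ways. Neighbouring genes may overlap at their ends, a transcript may read through from one gene into the next, and clustered families such as the gamma protocadherins and the Ugt1a enzymes join alternative first exons to one set of common exons. A short read from a shared exon cannot be assigned to one gene by its sequence alone, so the count given to each gene depends on the counting rule, which the sources used here do not state. The sum over a cluster does not depend on how reads are divided among its genes, but it does on whether shared reads were dropped or counted more than once, which is likewise not stated. The share of a gene is its count as a percentage of the summed count of its cluster in the same library.

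The sequences of the clusters of Lrch4, Nfs1 and Umad1, taken from the GENCODE M21 transcripts (mm10), show what sharing means at the level of a read. They are shown because these clusters held a gene that passed a test or had a count in a single library, and the points where the genes part were chosen for display after their values were seen. Capitals mark bases that are coding in both genes. Lrch4 and the gene model Gm20605 share several coding exons, the first as an unbroken run of 220 coding bases at chr5:137629207-137629426 on the plus strand.
Lrch4 and Gm20605: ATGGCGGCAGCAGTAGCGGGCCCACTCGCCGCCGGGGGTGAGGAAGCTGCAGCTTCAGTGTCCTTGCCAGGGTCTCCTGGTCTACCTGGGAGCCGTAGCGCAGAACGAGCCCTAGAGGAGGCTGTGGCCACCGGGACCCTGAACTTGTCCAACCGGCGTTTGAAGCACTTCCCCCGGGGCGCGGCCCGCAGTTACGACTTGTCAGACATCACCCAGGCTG
The last 60 of these bases, chr5:137629367-137629426, are followed in a transcript of each gene by the 30 lower-case bases below, and those of Lrch4 lie in no exon of Gm20605.
Gm20605: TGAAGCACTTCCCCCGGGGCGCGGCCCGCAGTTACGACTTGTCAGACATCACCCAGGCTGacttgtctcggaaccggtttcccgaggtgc
Lrch4: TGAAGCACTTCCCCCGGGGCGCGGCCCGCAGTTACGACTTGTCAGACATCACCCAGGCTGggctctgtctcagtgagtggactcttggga
On the minus strand of chromosome 2 the gene model Gm28036 shares 256 coding bases with Nfs1, the cysteine desulfurase that supplies sulfur for iron-sulfur clusters. The shared run ends at chr2:156125281-156125340, and the lower-case bases of Nfs1 lie in no exon of Gm28036.
Gm28036: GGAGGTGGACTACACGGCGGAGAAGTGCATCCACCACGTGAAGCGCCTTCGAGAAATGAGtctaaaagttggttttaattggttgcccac
Nfs1: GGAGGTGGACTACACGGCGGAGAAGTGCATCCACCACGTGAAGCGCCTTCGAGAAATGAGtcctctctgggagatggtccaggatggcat
On the plus strand of chromosome 6, Umad1, named for a domain of endosomal sorting proteins, and the gene model Gm45062 part after chr6:8427126-8427185. There the lower-case bases of Gm45062 lie in no exon of Umad1.
Umad1: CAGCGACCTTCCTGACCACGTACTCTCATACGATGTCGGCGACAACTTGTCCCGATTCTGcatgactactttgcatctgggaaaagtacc
Gm45062: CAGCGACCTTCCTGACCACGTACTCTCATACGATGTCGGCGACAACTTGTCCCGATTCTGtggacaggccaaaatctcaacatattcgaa
A read within the capitals fits both genes of a pair, and at these points a read must reach the lower-case bases to tell the transcripts apart.

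Most clusters were small. There were 144 clusters of 2 genes, 144 of 3 genes, 10 of 4 and 8 of 5, and the 2 largest were the Ugt1a array with 9 genes and the alpha and gamma protocadherin arrays, joined in 1 cluster of 38. Of the 847 genes, 784 were listed in the count table, 732 had a count in at least 1 library and 52 were listed with none. The members held 3.85% to 3.99% of all counts. The clusters just above the minimum were Btbd8-Gm42669-1700028K03Rik, Srpx-Rpgr and Ttll2-Gm49630-Unc93a2, with lowest sums of 105, 111 and 117, and those just below were Nnt-Nnt, Mzb1-SPATA24-Spata24 and Zfp708-Gm28557-Rslcan18, with 73, 75 and 78.

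The genes fell into structural classes. A bridging gene shares exon bases with at least 2 other genes that share none with each other, as a read-through model does. Of the 171 bridging genes 134 had a predicted or clone name, 142 were listed and 112 had counts. Over listed genes, as for the other classes, the median share was 0.537% in vehicle and 0.595% in GDF10 libraries. Of the 142 listed, 64 stayed under 1% in every library, those without a count included. Of the 171 bridging genes, 14 held the largest share of their cluster in every library. A contained gene, with at least 90% of its exon bases inside 1 other gene, had a median share of 5.57% in vehicle and 3.91% in GDF10 libraries (42 genes, 26 listed). The other 634 genes, called partly shared, had medians of 42.5% and 40.7%, and 265 of them led their cluster in every library. Read by name, the 153 listed genes with predicted or clone names had a median share of 0.591% in vehicle libraries against 41.4% for the 631 others. Of these, 29 and 23 had no count.

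In most clusters the division of counts was similar in all 4 libraries. In 209 of 308 clusters, or 67.9%, no gene's share ranged over 5 percentage points or more. In 283 the same gene held the largest share in every library. Both numbers include 33 clusters with under 2 genes with a count, where the share cannot vary. These 33 also enter the other counts and medians of this paragraph. The leading gene held at least 90% in every library in 135 clusters, and at least 2 genes held 10% or more throughout in 141. The median over clusters of the largest share difference was 1.14 points within the vehicle pair, 1.34 points within the GDF10 pair and 0.982 points between the group means. Differences of 10 points or more were found in 25 clusters within the vehicle pair and in 30 within the GDF10 pair, together 44 clusters or 14.3%, against 11 between the group means. At 20 points or more the counts were 9, 8 and 3. A difference within a pair compares single libraries, while that between groups compares means of 2 libraries, which vary less. The 2 kinds of value are therefore not on the same scale. The 95% Wilson intervals of a share, which cover counting error only, did not overlap within the vehicle pair in 99 clusters and within the GDF10 pair in 109, with a median largest half-width of 1.40 points. The shares of replicates thus differed beyond counting error in many clusters of either group.

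**Figure D1:**
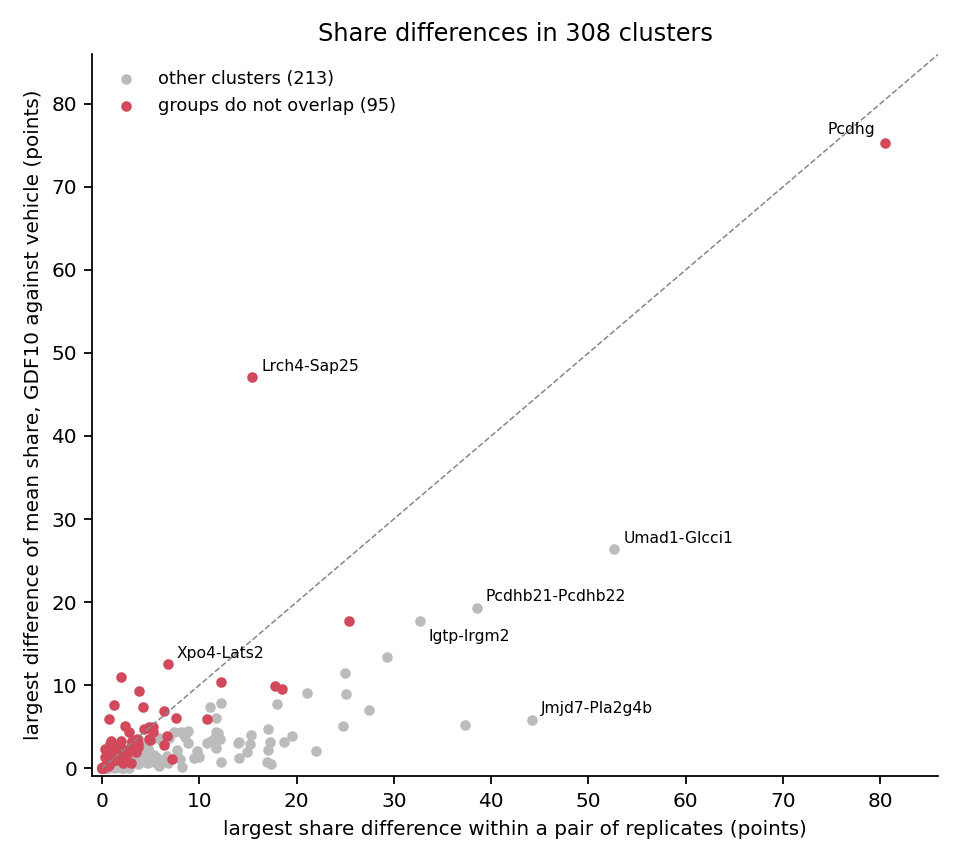
Each point is 1 of 308 clusters, with the largest share difference within either pair of replicates on the horizontal axis and the largest difference of mean share between GDF10 and vehicle on the vertical axis, both in percentage points. The dashed line marks equal differences, and red points mark 95 clusters. In these the 2 vehicle libraries do not overlap the 2 GDF10 libraries for the gene with that largest difference. With 2 libraries in each group such separation can also arise by chance. Whether 95 of 308 clusters exceeds the number due to chance was not tested, so the colour is a description only. Of 308 clusters, 44 lie above the line, 9 of them with a difference of at least 5 points between groups, and Lrch4-Sap25 stands highest of these.

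How far shares ranged was set beside the exon sharing given by the annotation and beside the summed count. Across the 308 clusters, Spearman's rho of the range over 4 libraries was 0.18 with the percentage of the cluster's exon bases that were shared. With the lowest summed count it was -0.15, both as descriptions over clusters that share the same libraries. The 33 clusters with under 2 genes with a count, whose range cannot vary, were included. In 233 clusters at least 2 genes with counts shared exon bases directly, and their median range was 3.15 points. In 42 clusters the genes with counts were linked only through a gene without counts, and the median was 3.04 points. A range of 10 points or more was found in 46 clusters, or 19.7%, of the first kind and in 5, or 11.9%, of the second.

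The summed counts of clusters were closer between replicates than the counts of their genes. The 641 member genes that passed the low-count filter, of 784 listed, had a median absolute difference in log2 CPM of 0.150 within the vehicle pair and 0.177 within the GDF10 pair. A difference over 1 log2 unit was seen in 48 of them, or 7.49%, in the vehicle pair and in 71, or 11.1%, in the GDF10 pair, against 3.90% and 4.60% of all 15467 genes tested. For the 308 cluster sums the medians were 0.0957 and 0.121, and 0 sums differed by over 1 unit in either pair. The sums have higher counts than single genes, and the part of depth in this was not tested.

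**Figure D2:**
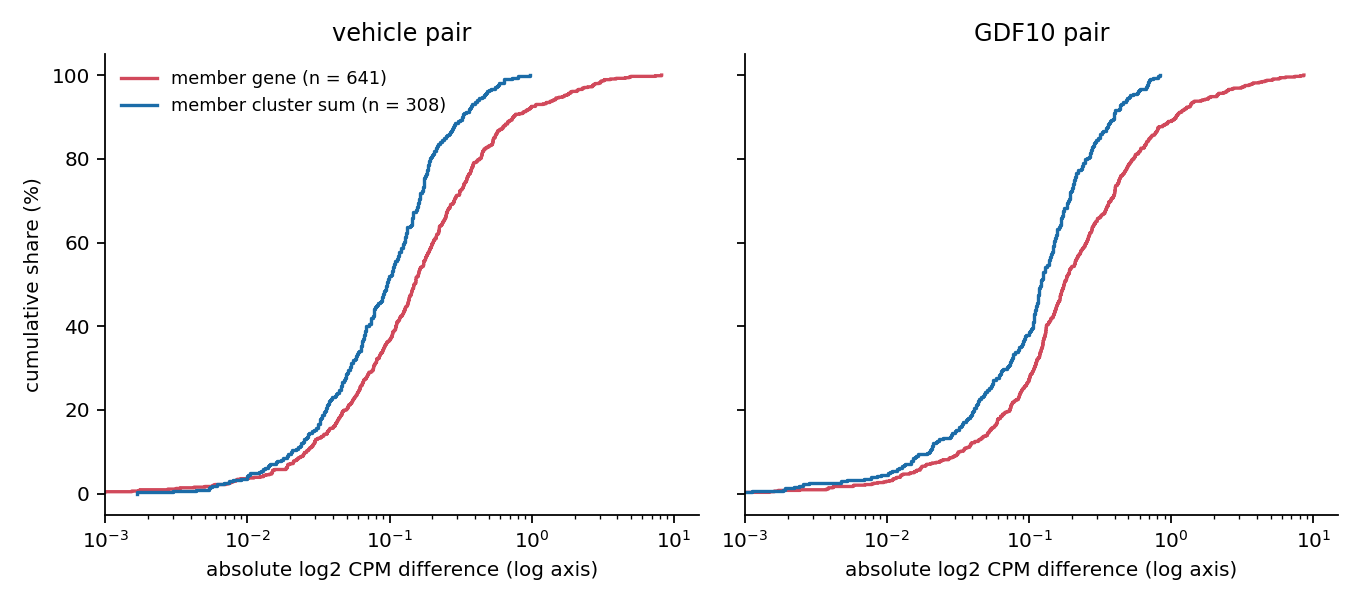
Cumulative share of features (vertical axis, percent) against the absolute log2 CPM difference between the 2 replicates of a group (horizontal log axis), for 641 member genes in red and 308 cluster sums in blue. In both pairs the sums lie to the left and end below 1 unit, while 48 and 71 genes lie beyond 1 unit.

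The comparison of GDF10 with vehicle asked which of these genes or clusters differ after 6 h. In bulk RNA, fewer cells of a type and less RNA per cell cannot be told apart. With edgeR's quasi-likelihood test, adjusted over all 15467 genes, 1 of 641 member genes passed, or 0.156%, against 0.162% of all genes. It was the bridging model Gm20605, which fell. Without adjustment 32 members, or 4.99%, had a p under 0.05, 18 higher and 14 lower, against 5.94%, 2.44% and 3.49% of all genes. The median absolute log2 fold change was 0.133 for members and 0.122 for all genes. When the genes of each cluster were replaced by their sum, 0 of 308 clusters passed with edgeR, against 0.126% of all features tested, and 0 with DESeq2. Unadjusted p was under 0.05 for 13 sums, or 4.22%, 10 higher and 3 lower, against 6.07%, 2.51% and 3.57% of all features. The lowest p among the sums belonged to the Ugt1a array (log2 fold change 0.38, adjusted p = 0.678).

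Shares were then tested directly, by asking whether a gene's log2 change differed from that of its whole cluster, the gene itself included. The alternative with limma-voom compares a gene with the other genes of its cluster, which is a different measure. Of 564 member genes in 231 clusters tested, 4 passed, or 0.709%, against 1.52% of all 594 genes tested, the other 5 calls lying in the 2 clusters left out by name. They were Pcdhga8, Pcdhga11 and Pcdhgb4 of the gamma protocadherins and Gm28036. Unadjusted p was under 0.05 for 19 members, or 3.37%, against 4.21%. In 2 clusters, those of Lrch4 and of the gamma protocadherins, the mean share of a gene differed by at least 20 points with groups that did not overlap, against 1.29% of the 310 clusters over the count minimum. At 10 points or more there were 7, against 2.9%: these 2 and the clusters of Zfp934, Glcci1, Lats2, Mtcp1 and Txnl4a. The 310 clusters are the 308 kept and the 2 left out by name, with 4 at 20 points or more and 9 at 10 points or more. Both percentages thus exceed those of the members only through the 2 clusters left out. An exact permutation test of 1 value with 2 against 2 libraries cannot reach 0.05, so these share differences are descriptions.

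The cluster of Lrch4, Gm20605 and Sap25 (chr5:137629121-137642902, plus strand) had a difference in mean share of 47.1 points for Gm20605, the second after Pcdhgb4, with 75.3 points, among genes whose difference exceeded their own range within both groups. Lrch4 encodes a protein with leucine-rich repeats and a calponin homology domain, and Sap25 a component associated with the Sin3 corepressor. Gm20605 covers exons of both, and 94.8% of its 4464 exon bases lie in one or the other. Lrch4 (ENSMUSG00000093445) had 464 and 138 counts with vehicle against 804 and 1259 with GDF10. Gm20605 (ENSMUSG00000029720) had 1293 and 1167 counts with vehicle against 490 and 500 with GDF10. Sap25 had 50 and 42 against 59 and 39. Lrch4 was thus higher and Gm20605 lower in both GDF10 libraries, with no overlap, while the values of Sap25 overlapped.

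The summed CPM of the cluster was 50.8 and 45.4 with vehicle against 45.2 and 51.3 with GDF10, a log2 fold change of 0.0090 (adjusted p = 0.993). Gm20605 averaged 37.8 ± 2.16 CPM with vehicle and 15.3 ± 1.49 CPM with GDF10 (SD, n = 2 per group). The log2 fold change was -1.30 (standard error 0.115, adjusted p = 0.0130 with edgeR). Lrch4 averaged 8.85 ± 5.92 CPM with vehicle and 31.4 ± 6.41 CPM with GDF10. Its log2 fold change of 1.83 did not pass (standard error 0.653, adjusted p = 0.825). The share of Gm20605 was 71.6% and 86.6% with vehicle against 36.2% and 27.8% with GDF10. That of Lrch4 was 25.7% and 10.2% against 59.4% and 70.0%. In the share test neither passed, with adjusted p-values of 0.281 for Gm20605 and 0.0977 for Lrch4. With limma-voom, which compares with the other genes of the cluster, the adjusted p was 0.0158 for both. These were its 2 calls among members, against 1.18% of all genes in its share test. The relative log2 change of Gm20605 was -1.31 in the share test and -2.96 with limma-voom. Per exon base, Lrch4 took 26.9% and 10.9% of the length-scaled counts with vehicle and 58.2% and 70.1% with GDF10, Gm20605 the greater part of the rest, and Sap25 between 5.43% and 10.7%. The fall of Gm20605 did not pass without robust dispersions in edgeR, and without vehicle replicate 1 Lrch4 passed the gene test at 0.0184 and the share test at 0.0448.

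**Figure D3:**
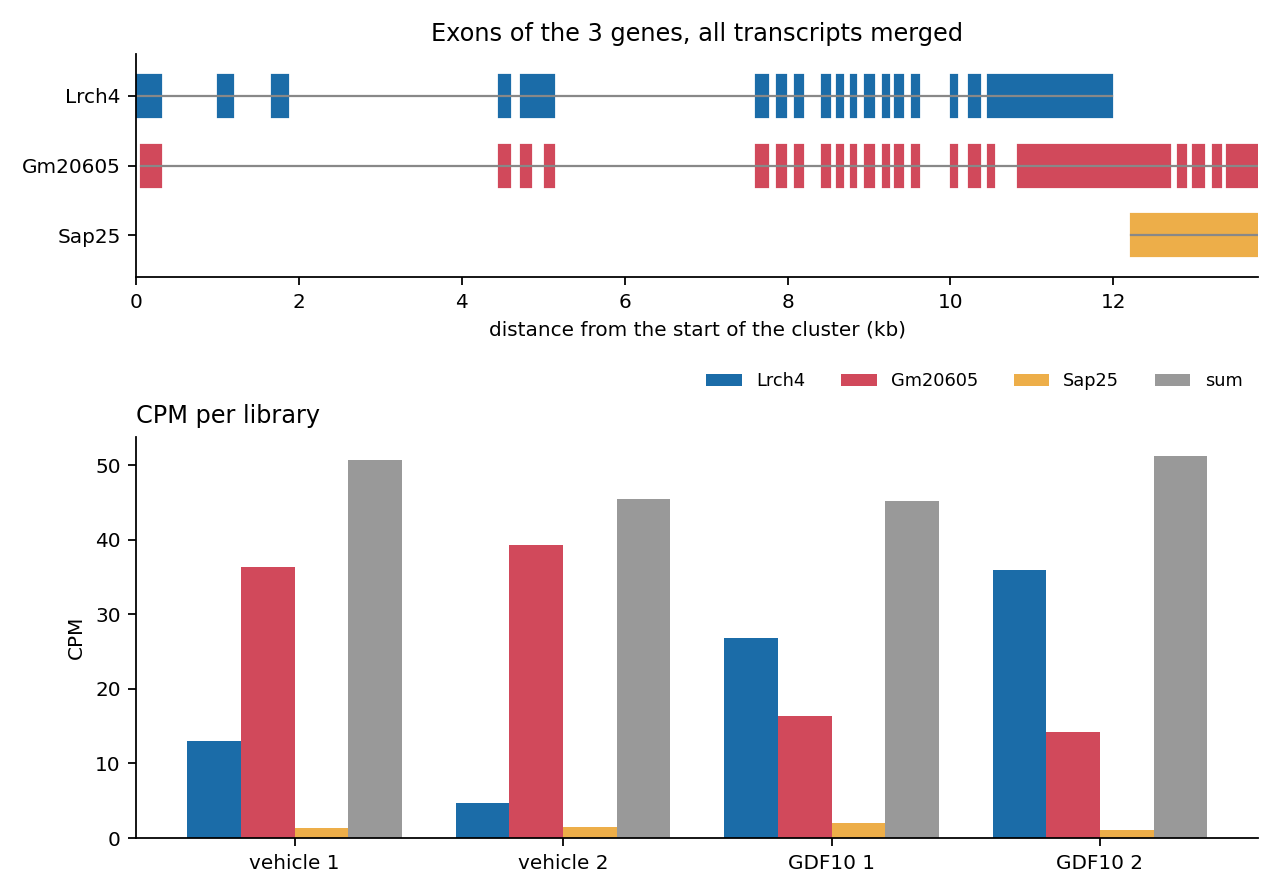
Upper panel, merged exons (boxes) of Lrch4, Gm20605 and Sap25 along the cluster, in kb from its start. Lower panel, CPM of each gene and of their sum (grey) in each library. Gm20605 shares most exons of both neighbours, Lrch4 is higher and Gm20605 lower in both GDF10 libraries, and the sum stays between 45.2 and 51.3 CPM.

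The gamma protocadherins are cell-surface adhesion proteins, each with its own variable exon joined to constant exons that all of them share. Their cluster (chr18:36930184-37841873, plus strand) also holds the alpha array. Pcdhgb4 had 10257 and 6942 counts with vehicle against 314 and 16 with GDF10. Pcdhga11 had 27 and 22 counts with vehicle against 7359 and 48 with GDF10. Pcdhga8 had 11 and 5 counts with vehicle against 16 and 7956 with GDF10. The leading gene was therefore Pcdhgb4 in both vehicle libraries, with 80.0% and 74.3% of the cluster's counts, Pcdhga11 in GDF10 replicate 1, with 81.0%, and Pcdhga8 in GDF10 replicate 2, with 67.7%.

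Other members were also high in a single library. Pcdhga2 had 708, 37, 5 and 11 counts in vehicle 1, vehicle 2, GDF10 1 and GDF10 2. Pcdhga9 had 25, 709, 33 and 17 counts, and Pcdhgc4 had 41, 43, 35 and 1569. Each of the 4 libraries thus had at least 1 gene that was high in it alone. Pcdhgc3 and Pcdhgc5 were even across libraries, unlike Pcdhgc4, which is a C-type member as they are. Pcdhgc3 took 8.31% to 9.07% of the counts and Pcdhgc5 1.60% to 2.39%. The summed CPM was 360 and 315 with vehicle against 304 and 335 with GDF10 (log2 fold change -0.08, adjusted p = 0.892).

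In the share test the log2 changes relative to the cluster were -5.52 for Pcdhgb4 (adjusted p = 0.00271), 8.94 for Pcdhga8 (adjusted p = 0.00141) and 7.45 for Pcdhga11 (adjusted p = 0.00251). In the gene test none of these passed, with adjusted p-values of 0.825, 0.845 and 0.845. With 1 GDF10 library left out, Pcdhgb4 passed the gene test, at 0.00180 without replicate 1 and 0.00532 without replicate 2, Pcdhga8 passed without replicate 1 (2.00e-07) and Pcdhga11 without replicate 2 (3.03e-09). Without GDF10 replicate 2 the relative change of Pcdhga8 was 1.28, and without GDF10 replicate 1 that of Pcdhga11 was 0.87, both with an adjusted p of 1. Without vehicle replicate 1 or 2 the 3 adjusted p-values were between 0.247 and 0.470, and with limma-voom between 0.173 and 0.997. The higher values of Pcdhga8 and Pcdhga11 with GDF10 thus each rested on 1 library. Of the 37 protocadherins in the clusters kept, 27 had counts and 20 were tested, and the 3 genes above were those that passed the share test, against 1.52% of all genes in that test. In the gene test 0 passed with edgeR, 2 were lower at an unadjusted p under 0.05, against 3.49% of all genes, and 0 passed with DESeq2.

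**Figure D4:**
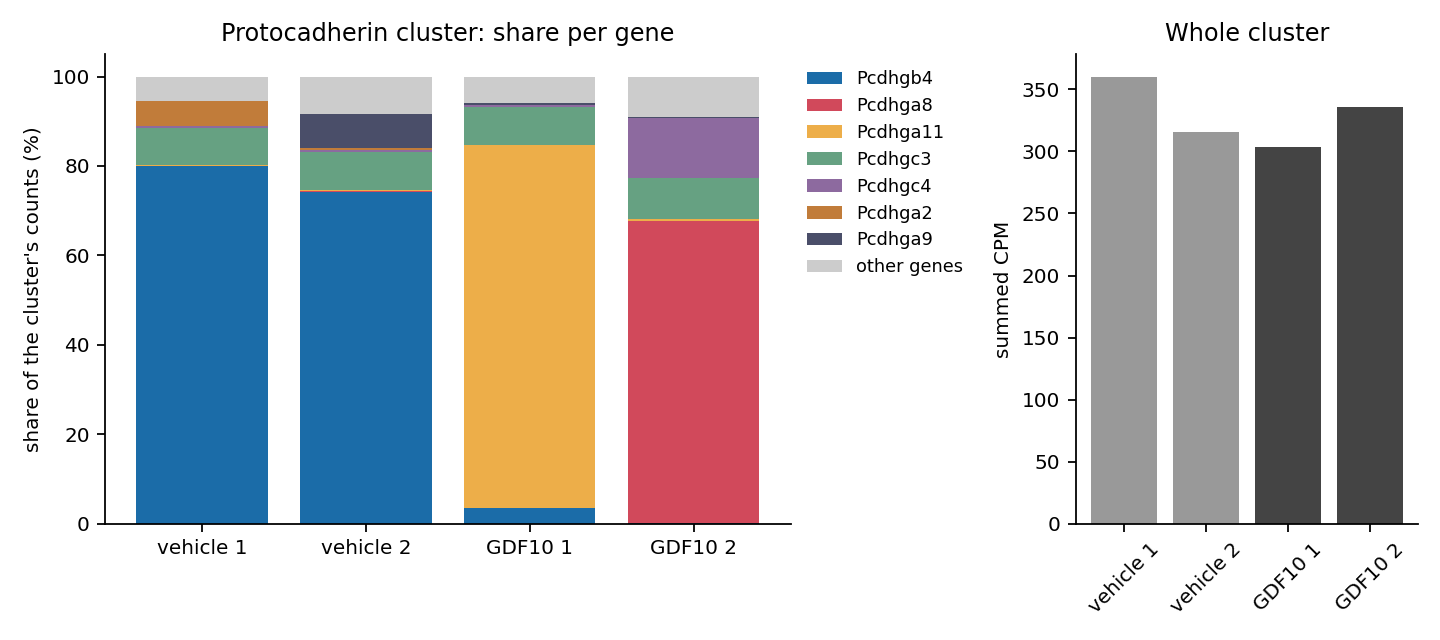
Left, share of the cluster's counts (percent, stacked) taken by 7 gamma protocadherins and by all other genes of the cluster in each library. Right, the summed CPM of the cluster, with vehicle in light grey and GDF10 in dark grey. The leading gene is Pcdhgb4 in both vehicle libraries and another gene in each GDF10 library, while the sum ranges from 304 to 360 CPM.

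The fourth gene that passed the share test was a minor part of its cluster (chr2:156071842-156144186, minus strand). Gm28036 bridges Cpne1, which encodes a calcium-dependent membrane-binding copine, Rbm12, which encodes an RNA-binding protein, and Nfs1, and all of its 5823 exon bases lie in other genes. It had 64 and 80 counts with vehicle against 20 and 19 with GDF10, or 1.35% and 2.19% of the cluster against 0.503% and 0.444%. Its change relative to the cluster was -1.88 (adjusted p = 0.00644), and its own log2 fold change of -1.88 did not pass the gene test (adjusted p = 0.247). The share call was lost without vehicle replicate 2, GDF10 replicate 1 or GDF10 replicate 2, at 0.296, 0.114 and 0.227, and with limma-voom at 0.0885. The other genes of the cluster were far better counted. Cpne1 had 2186 and 1573 counts against 1693 and 1697, Rbm12 had 880 and 737 against 805 and 1020, and Nfs1 had 1626 and 1264 against 1459 and 1542, and none of these passed.

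Lats2, a kinase of the Hippo pathway, shares a cluster with Xpo4, a nuclear export receptor gene, through the bridging model Gm49361, which was not analysed here. Lats2 had 2007 and 1613 counts with vehicle against 2475 and 3023 with GDF10. Its level was 55.4 ± 1.39 CPM with vehicle and 84.4 ± 2.53 CPM with GDF10. The log2 fold change was 0.61 (standard error 0.082). This did not pass with edgeR (adjusted p = 0.0662) and passed with DESeq2 (adjusted p = 3.01e-06). With edgeR it passed without GDF10 replicate 1 or 2, at 0.0136 and 0.0173, and not without vehicle replicate 1 or 2, at 0.324 and 0.355. Xpo4 had 1200 and 1144 counts against 763 and 1317, which overlap. The share of Lats2 was 62.6% and 58.5% with vehicle against 76.4% and 69.7% with GDF10, without overlap, and the share test gave an adjusted p of 1. In DESeq2's gene test Lats2 and Gm20605 were the 2 members that passed, against 0.42% of all genes.

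The other clusters with non-overlapping differences of at least 10 points did not pass the share test for any gene. Cmc4, which encodes a small mitochondrial protein, and Mtcp1, of the family of AKT coactivators, share exon bases on chromosome X. Cmc4 had 74 and 44 counts against 68 and 85, and Mtcp1 had 138 and 81 against 83 and 96. The share of Mtcp1 was 65.1% and 64.8% with vehicle against 55.0% and 53.0% with GDF10, close within each pair, but its Wilson intervals reached from 56.1% to 72.6% in vehicle replicate 2 and from 45.8% to 60.2% in GDF10 replicate 2 and so overlapped. Txnl4a, of the U5 spliceosomal particle, took 53.6% and 59.2% against 39.9% and 52.1% of its cluster with Gm16286. Zfp934, a zinc finger gene, took 42.5% and 47.6% against 49.8% and 61.3%, while Zfp935, which bridges it to Gm49359, had 0, 1, 1 and 32 counts.

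Smaller differences without overlap were found in further named clusters, and no gene in them passed. Hoxa2, a homeobox gene, had 30 and 33 counts with vehicle against 12 and 14 with GDF10, with shares of 14.4% and 16.6% against 7.45% and 6.83% beside Hoxa3 (adjusted p = 0.815 in the gene test). Osgepl1, a tRNA modification gene, took 28.5% and 29.5% against 37.3% and 36.0% beside Ormdl1, a regulator of sphingolipid synthesis. Slc5a3, a myo-inositol transporter gene, took 43.2% and 47.4% against 36.9% and 39.0% beside Mrps6, of the mitochondrial ribosome. Evi2b, a membrane protein gene within an intron of Nf1, took 3.61% and 19.2% against 1.19% and 1.82% and had 22, 110, 6 and 11 counts, while Evi2a had 469, 454, 452 and 467. Pagr1a, a subunit of a histone methyltransferase complex, had 854 counts in vehicle replicate 1 and 23, 7 and 24 in the others, beside the major vault protein gene Mvp with 3397, 3113, 3051 and 3883.

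The widest share differences within a pair lay in clusters where 1 library, or 1 library of each group, stood apart. Jmjd7, a hydroxylase gene, Pla2g4b, a cytosolic phospholipase gene, and Gm28042, which bridges them, are an example of the latter. Gm28042 had 34, 108, 6 and 110 counts in vehicle 1, vehicle 2, GDF10 1 and GDF10 2, and Pla2g4b had 112, 25, 102 and 21. Jmjd7 had 104, 91, 91 and 102. Where the bridging model was high Pla2g4b was low, in 1 library of either group, and the sums were 250, 224, 199 and 233.

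Umad1, Glcci1, a glucocorticoid-induced transcript, and their bridge Gm45062 differed in GDF10 replicate 1. Gm45062 had 197 counts there and 0 in the other 3 libraries. Umad1 had 59 counts there against 334, 195 and 303 elsewhere, and Glcci1 118 against 416, 361 and 356. Gm45062 took 52.7% of that library's counts, and with Poisson counting a 0 elsewhere allows up to 3 counts. The cluster of Zfp82, Zfp566 and their bridge Gm26920 differed in GDF10 replicate 2, where Gm26920 had 0 counts after 65, 71 and 104 in the others. Zfp82 had 144, 74, 60 and 123, and Zfp566 had 154, 114, 134 and 91.

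The next 3 clusters are pairs with no bridging model. Irgm2 and Igtp encode interferon-inducible GTPases, and Irgm2 had 2346 counts in vehicle replicate 1 against 454, 489 and 721, while Igtp had 1530, 1174, 1506 and 1810. Slc10a3, of a bile acid transporter family, had 518 counts in GDF10 replicate 2 against 1499, 1094 and 1210, while Ubl4a, of the tail-anchored protein pathway, had 1371 against 1062, 1000 and 925. Pcdhb21 had 240 counts in vehicle replicate 2 and 0 in the others, beside Pcdhb22 with 455, 383, 386 and 415. U2af1l4, a splicing factor gene in a cluster with the bridging model Gm49396, took 79.9% of its cluster in vehicle replicate 2 and 52.4% to 61.1% in the others. A single library stood at least 10 points from the other 3, which lay within 5 points of each other, in 3 clusters for vehicle replicate 1, 2 for vehicle replicate 2, and 5 for each GDF10 library.

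**Figure D5:**
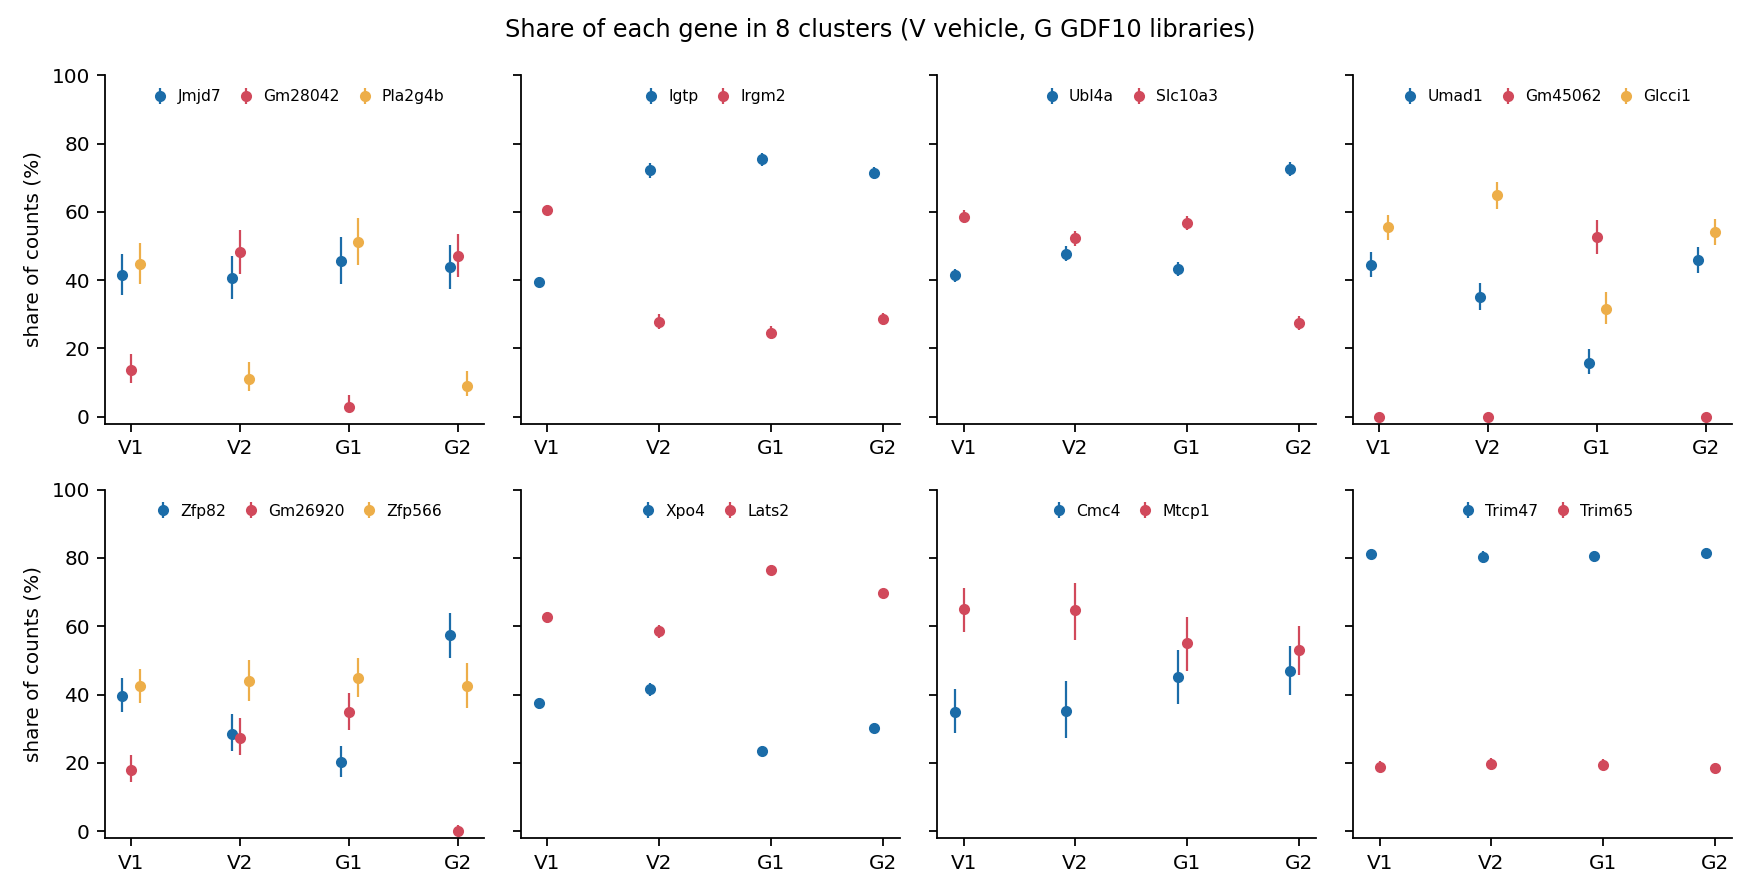
Share of counts (percent, vertical axis) of each gene in 8 clusters for the 2 vehicle (V1, V2) and 2 GDF10 (G1, G2) libraries, with 95% Wilson intervals that cover counting error. The shares of Irgm2, Slc10a3 and Gm45062 stand apart in 1 library, those of Xpo4 and Lats2 and of Cmc4 and Mtcp1 do not overlap between the groups as point values but did not pass the share test, and Trim47 stays at 80.4% to 81.4%.

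In 5 of the 6 best counted clusters the widest share range was 2.21 points. Tuba1b and Tuba1a, 2 alpha-tubulin genes, had 89744 to 112056 counts in sum, and Tuba1b took 69.8% to 71.8%. The mitochondrial genes mt-Atp8, mt-Atp6 and mt-Co3, for subunits of ATP synthase and cytochrome oxidase, overlap at their ends, and mt-Co3 took 69.8% to 72.0%. The mt-Nd4 gene, of complex I, took 86.2% to 87.9% beside mt-Nd4l. S100a4, a calcium-binding protein gene, took 99.9% in every library. Plec, the plectin gene, took 89.3% to 93.9% beside Parp10, a wider range of 4.56 points, and the sum of this pair also differed between the GDF10 libraries, at 823 and 1188 CPM. Myl12a, a myosin light chain gene, took 76.5% to 78.1% beside Myl12b. The log2 fold changes of these 6 sums lay between -0.09 and 0.17, and none passed.

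Among clusters with at least 2 well-filled genes, 5 had the narrowest ranges. Those of Ranbp1 and Ifnar2 also hold the models Gm49776 and Gm21970. Ranbp1, a cofactor of nuclear transport, took 82.9% to 83.7% beside Dgcr8, of microRNA processing. Trim47 took 80.4% to 81.4% beside Trim65, both of the tripartite motif family. Pfdn5, a prefoldin subunit gene, took 69.2% to 70.3% beside Myg1. Ifnar2, an interferon receptor chain, took 68.1% to 69.0% beside Il10rb. Rps10, a ribosomal protein gene, took 81.8% to 83.0% beside Nudt3, although the annotation links them through the model RPS10-NUDT3, which was not analysed here.

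Known same-strand pairs were examined by name. Nme2 and Nme1, nucleoside diphosphate kinases, took 64.5% to 66.1% and 31.5% to 34.3%, and their bridge Gm20390 took 0.771%, 1.16%, 0.881% and 2.48%. Snrpn, an imprinted splicing gene, took 91.2% to 99.3%, and Snurf, contained in it, had 1 count in each library. Cpt1b, the muscle form of carnitine palmitoyltransferase, had 199, 24, 132 and 42 counts in vehicle 1, vehicle 2, GDF10 1 and GDF10 2, beside the choline kinase gene Chkb with 981, 1202, 997 and 1281. The share of Cpt1b was thus 16.9% and 1.96% within the vehicle pair, and 11.7% and 3.17% within the GDF10 pair. In the cluster of Rpl36al, Dnaaf2 and Pole2, which holds 5 genes, Rpl36al took 72.3% to 74.1%.

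The Ugt1a genes encode glucuronosyltransferases and share their common exons as the protocadherins do. Ugt1a6a had 455 and 359 counts with vehicle against 535 and 639 with GDF10 (log2 fold change 0.54, adjusted p = 0.468). Ugt1a6b had 169 and 134 against 219 and 278 (log2 fold change 0.72, adjusted p = 0.555). Both were higher in each GDF10 library without overlap and neither passed. Ugt1a7c had 474 and 319 against 305 and 491, which overlap. Ugt1a10, Ugt1a9, Ugt1a8 and Ugt1a5 had counts in 3 libraries and 0 in GDF10 replicate 2, and Ugt1a2 had 49 and 0 against 150 and 0. The sum was 1282 and 1017 with vehicle against 1436 and 1517 with GDF10.

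The remaining lists were made by symbol prefix. Of 26 zinc finger members 24 were tested and 0 passed the gene or the share test. A share range of at least 10 points was seen in 7, with a median range of 5.43 points. Such a range was found in 17 of 153 listed members with predicted or clone names and in 85 of the 631 others. Of the 153, however, 67 stayed under 1% in every library, against 79 of the 631, and in these genes such a range cannot arise. Of the 7 ribosomal protein genes 2 had such a range, of the 7 respiratory chain and ATP synthase genes 0, and of the 14 genes with the prefixes Rab, Arf, Arp, Vps, Snx or Tmem 1. Most of these serve membrane traffic, but Arpc5l and Arpc4 encode actin-nucleating subunits, and Tmem269, Tmem184a and Tmem265 are named as membrane proteins only. Of the 5 ubiquitin and proteasome genes 2 had one, of the 4 genes with the translation factor prefixes Eif and Eef 1, and of the 5 RNA processing and 3 nucleoside diphosphate kinase genes 0. In these lists 0 genes passed either test with edgeR, and DESeq2's 2 calls lay in none of them. At an unadjusted p under 0.05 in edgeR's gene test, 1 of 7 ribosomal protein genes was higher, against 2.44% of all genes. At the same level 1 of 24 zinc finger genes was lower, against 3.49% of all genes.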

How the data were processed

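RNA sequencing of 2 vehicle and 2 GDF10 libraries was deposited by the authors as raw counts of reads for each gene, in whole numbers. Per the submitters' processing notes the tools include Trimmomatic 0.36, HISAT2 2.0, StringTie 1.3.3b, bedtools 2.26.0 and DESeq2 1.12.4 with build mm10, with no role stated. The counting tool, its annotation, its use of strand and its handling of reads in shared exons are not stated in the sources used here, which bears on every share. Symbols, exons and transcript sequences came from GENCODE M21. The members, lists and alternatives were chosen with earlier results of these data known.

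Exons of all transcripts of a gene were merged, and genes sharing at least 1 base were joined. The tests were run with edgeR 4.0.16 under R 4.3.3: filterByExpr with the groups kept 15467 genes, libraries were scaled by TMM (factors 0.995 to 1.004), dispersions were robust, and glmQLFit and glmQLFTest compared the groups without covariates. Cluster sums were tested likewise over 15118 features, and shares with diffSpliceDGE, the cluster in the place of the gene. Benjamini-Hochberg adjustment was over all features tested, with 0.05 as the threshold. The gene, sum and share tests were tested on simulated data. The coefficient of variation between replicates was 14.3%. DESeq2 1.42.0 and limma 3.58.1 (limma-voom) were alternatives, beside other scaling, filters, thresholds, cluster definitions, the replicate block and each library left out in turn.

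Named clusters were those with a gene that passed, the 12 with the largest difference between groups that do not overlap, the 8 with the widest range within a group, the 6 of highest CPM, the 5 most stable with 2 well-filled genes, the 3 with most genes, the 3 on either side of the count minimum, and those fixed by name. At 95% the Wilson intervals cover counting error only. One shared stretch of sequence is not reported here.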

Additional observations from a re-analysis of the deposited data

How the results depend on the processing

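The gene test called 1 member. It called 0 without robust dispersions, 2 with DESeq2's Wald test, 2 at an adjusted p under 0.1 and 0 under 0.01, and between 4 and 18 when 1 library was left out, where a lone library is assumed to vary like the others. The fall of Gm20605 passed in each of these 4 fits. The test of summed counts called 0 clusters, and with a library left out it called some only where that was a GDF10 library. The share test called 4 genes, 2 with limma-voom and 7 at an adjusted p under 0.1. With a library left out the number of calls rose or fell with the library. Clusters with a share difference of at least 20 points and no overlap numbered 2. They numbered 7 at 10 points, 5 with counts divided by exon length, and between 5 and 7 with a library left out, since 1 library overlaps less readily.

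The replicate numbers were not shown to pair the libraries: the deviations of replicate 1 from the group means correlated at 0.0696 between the groups. With the replicate block the counts were 1 for the gene test, 0 for the sums and 4 for the shares.

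For the 8 single genes tested under alternatives for a change relative to their cluster, 0 changes reversed direction. Of these alternatives 73 kept the side of the threshold, 15 lost it and 5 gained it. All 15 losses fell on the 4 genes that passed the share test, since only these could lose it. With limma-voom each of the 4 was lost. The 73 include alternatives in which a gene that had not passed again did not pass. The alternatives of at least 50 shared bases and of genes of every biotype were added for these genes after seeing the data. With 2 libraries a group and no counting rule in the sources used here, a share is a share of counts as deposited, and how far it follows the transcripts was not tested. The counting interval of a share alone reached a half-width of up to 8.26 points.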
